A study of Mus musculus with 3 samples.

Results

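The HoxD locus of mouse chromosome 2 was examined in 3 single-nucleus ATAC-seq libraries, an assay in which the transposase Tn5 cuts and tags open chromatin in each nucleus, of embryonic forelimb mesenchymal progenitors. All peaks of the 3 deposited peak lists that lay between 73.9 and 75.65 Mb of chromosome 2 (mm10) were taken, and they were divided by position into the centromeric flank (below 74.66 Mb), the Hoxd cluster (74.66 to 74.78 Mb) and the telomeric flank (above 74.78 Mb). The window held 264 of the 190443 peaks of the E12.5 list, 175 of the 102459 of the E14.5 list and 270 of the 213613 of the E16.5 list. Peaks of different lists that overlapped by at least 1 bp were merged into common intervals, called regions here. This gave 330 of the 266531 regions of the series, with 106 in the centromeric flank, 23 in the cluster and 201 in the telomeric flank. Counts were summed by region from each library's own peaks, so the width counted in a region can differ between stages.

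The cells carried Hic1CreERT2/CreERT2;Rosa26LSLtdTomato/tdTomato on a C57BL/6J background, and their dams were given 7.5 mg tamoxifen by gavage at E10, so tdTomato marked cells, and their descendants, in which Cre was active from the Hic1 locus at about that time. tdTomato+ cells were sorted from pooled pairs of forelimbs of male and female embryos, and cells carrying blood, endothelial or macrophage surface markers were gated out. The E12.5 and E14.5 libraries came from the whole forelimb, and the E16.5 library from the segment around the elbow (distal stylopod and proximal zeugopod), which leaves out the digits. The E12.5 limbs were dissociated with another enzyme than the later ones. There was 1 library per stage, so stage cannot be told apart from library, from enzyme at E12.5 or from limb segment at E16.5. No test between stages was possible, and every interval below is a 95% interval that covers counting error only.

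The Hox genes of the D cluster encode homeodomain transcription factors that pattern the limb from shoulder to digit, and their order on the chromosome follows the order in which they are used, with Hoxd1 and Hoxd3 at the telomeric end and Hoxd13, the most posterior gene, at the centromeric end. Each side of the cluster faces a gene-poor landscape that holds limb enhancers. The telomeric landscape is known for enhancers that act in the early and proximal limb, and the centromeric landscape for enhancers that act in the digits and genitals. CTCF, a zinc-finger protein that blocks or anchors chromatin loops according to the direction of its site, binds at the boundary between the landscapes.

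Where 3 values follow each other below, they stand in the order of the stages. The libraries held 8294, 20023 and 14048 nuclei, with a median of 3069.5, 4496 and 13748.5 fragments in peaks per nucleus. Levels are given as CPM, which are fragments per 1000000 fragments in autosomal regions called in all 3 lists. The E14.5 list was the narrowest, with 146 kb of the window called against 293 kb at E12.5 and 292 kb at E16.5. Because only cuts inside a library's own peaks were counted, called widths are given beside the levels. Peaks were called from the same reads, so width and level are not independent. Neither a value per called kb nor a filter on width can separate them. Regions at the start sites of 5 of 5 limb mesenchyme markers (Prrx1, Prrx2, Twist1, Pdgfra and Tbx5) were called in every library, with a summed 400, 458 and 365 CPM. Neither blood marker (Ptprc, Spi1) had a region in any library, and of the endothelial markers Pecam1 had none and Cdh5 had 0.187, 0 and 1.37 CPM. Epithelial markers summed to 18.1, 21.2 and 24.4 CPM over 2, 1 and 3 of 3 genes, of which Epcam had 17.4, 21.2 and 13.4, Krt14 0, 0 and 5.69, and Krt5 0.693, 0 and 5.26. At E16.5, over flank regions without a coding start, thinned nuclei open both at Krt14 and in the telomeric or centromeric flank were 0.540 times (0.320 to 0.853) and 0.247 times (0.0509 to 0.722) as many as the product of both shares gives, from 18 and 3 nuclei. The same ratios were 0.787 (0.509 to 1.16) and 0.778 (0.356 to 1.48) for Krt5, and 0.863 (0.671 to 1.09) and 0.859 (0.556 to 1.27) for Epcam, whose intervals held 1. Muscle markers summed to 29.0, 16.6 and 20.4 CPM over 2 of 3 genes (none at Myf5), and Schwann cell markers to 23.7, 29.9 and 26.2 CPM over 1 of 2 genes (none at Sox10). The forelimb gene Tbx5 had 119, 136 and 107 CPM, against a summed 20.1, 9.20 and 11.7 CPM for the hindlimb genes Tbx4 and Pitx1. Per called kb Tbx5 had 5.71, 8.34 and 5.27 CPM, Tbx4 5.59, 5.12 and 2.48, and Pitx1 5.26, 7.82 and 3.76. The forelimb and hindlimb genes thus lay closer together per kb than in their sums. The part of these cells in the HoxD values was not tested. Libraries shared 151 to 401 cell barcodes by pair.

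The sequences that the results turn on come first. The 6 intergenic regions shown were chosen after their values were seen, for a large difference between stages that had the same sign per called kb from first to last stage, or for the highest level, and a 300-base window at the centre of each region's strongest E14.5 peak is shown, from RefSeq GRCm38.p6, the same build as mm10, on the forward strand. Capitals mark matches to CAATAAA (a motif of the HOX13 factors) or TGACAG (a motif of the MEIS and PREP factors), which were searched on both strands. The first pair lay in the centromeric flank and had its highest sums at E12.5. They are named by the distance of the region's midpoint from the Hoxd13 start site, negative towards the centromere, and the coordinates are those of the printed bases.
-402 kb, chr2:74265351-74265650: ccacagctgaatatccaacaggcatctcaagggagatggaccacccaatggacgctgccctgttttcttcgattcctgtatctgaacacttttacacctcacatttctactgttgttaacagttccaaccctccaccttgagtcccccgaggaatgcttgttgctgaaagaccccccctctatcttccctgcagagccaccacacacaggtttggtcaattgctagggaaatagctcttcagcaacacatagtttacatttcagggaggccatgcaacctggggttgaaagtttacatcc
-466 kb, chr2:74201552-74201851: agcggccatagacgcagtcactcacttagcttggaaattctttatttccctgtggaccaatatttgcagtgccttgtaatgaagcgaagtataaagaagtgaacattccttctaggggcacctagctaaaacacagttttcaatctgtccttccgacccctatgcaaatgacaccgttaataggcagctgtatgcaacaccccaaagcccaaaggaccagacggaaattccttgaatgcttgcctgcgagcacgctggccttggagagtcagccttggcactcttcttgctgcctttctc
The next 4 lay in the telomeric flank. They were the region with the highest level, a pair that was higher at E16.5 than at E12.5, and 1 that was lower.
361 kb, chr2:75029723-75030022: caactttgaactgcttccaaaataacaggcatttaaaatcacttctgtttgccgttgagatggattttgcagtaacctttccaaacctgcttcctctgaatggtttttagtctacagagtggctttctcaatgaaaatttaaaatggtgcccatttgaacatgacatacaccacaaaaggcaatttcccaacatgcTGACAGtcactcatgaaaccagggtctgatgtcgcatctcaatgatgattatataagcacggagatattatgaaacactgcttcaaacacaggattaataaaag
379 kb, chr2:75046989-75047288: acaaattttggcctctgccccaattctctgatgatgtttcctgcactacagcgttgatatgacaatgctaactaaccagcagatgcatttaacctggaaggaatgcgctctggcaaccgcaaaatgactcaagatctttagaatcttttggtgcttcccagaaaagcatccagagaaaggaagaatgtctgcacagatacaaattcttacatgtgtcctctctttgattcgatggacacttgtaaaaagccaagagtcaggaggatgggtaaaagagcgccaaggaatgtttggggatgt
739 kb, chr2:75406691-75406990: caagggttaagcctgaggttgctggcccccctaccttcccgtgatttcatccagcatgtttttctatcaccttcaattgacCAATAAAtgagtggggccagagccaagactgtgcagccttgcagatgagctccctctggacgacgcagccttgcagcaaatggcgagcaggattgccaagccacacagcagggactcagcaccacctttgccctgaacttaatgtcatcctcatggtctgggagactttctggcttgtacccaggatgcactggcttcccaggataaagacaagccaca
708 kb, chr2:75376527-75376826: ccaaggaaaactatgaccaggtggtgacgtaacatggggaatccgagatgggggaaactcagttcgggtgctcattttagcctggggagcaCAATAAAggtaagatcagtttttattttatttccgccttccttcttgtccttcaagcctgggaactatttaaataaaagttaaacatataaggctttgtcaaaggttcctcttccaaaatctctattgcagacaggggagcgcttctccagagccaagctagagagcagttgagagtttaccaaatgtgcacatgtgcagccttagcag
Of these 6 windows, those at 739 and 708 kb held CAATAAA and that at 361 kb held TGACAG, while no motif searched matched in the centromeric pair or at 379 kb. The 250 bases before the RefSeq start of Hoxd13 and of its neighbour Evx2 are shown because both regions were more open at E14.5 than at E12.5. Evx2, a homeobox gene of the even-skipped family, is read from the opposite strand, so its sequence is that of the reverse strand.
Hoxd13, forward strand, chr2:74667975-74668224: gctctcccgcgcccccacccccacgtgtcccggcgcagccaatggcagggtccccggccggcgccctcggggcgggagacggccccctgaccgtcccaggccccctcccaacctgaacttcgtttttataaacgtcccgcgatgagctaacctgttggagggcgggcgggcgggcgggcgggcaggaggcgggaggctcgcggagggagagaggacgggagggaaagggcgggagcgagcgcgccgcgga
Evx2, reverse strand, chr2:74659558-74659807: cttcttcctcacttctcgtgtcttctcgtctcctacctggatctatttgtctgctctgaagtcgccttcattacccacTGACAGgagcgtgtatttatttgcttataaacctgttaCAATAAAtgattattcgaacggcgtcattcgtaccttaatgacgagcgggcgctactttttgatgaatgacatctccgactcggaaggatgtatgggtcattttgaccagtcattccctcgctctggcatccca
The Evx2 promoter held CAATAAA and TGACAG, and that of Hoxd13 held no motif searched. The latter had a GC content of 74.4%, against a median of 52.4% over 32851 RefSeq promoters.

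Both flanks and the cluster were open at every stage, and the telomeric flank was the largest share throughout. Centromeric fragments stood at 496 CPM (489 to 503, exact Poisson), 371 (367 to 375) and 360 (357 to 363). The cluster stood at 443 CPM (436 to 449), 394 (390 to 398) and 385 (382 to 388). The telomeric flank stood at 853 CPM (844 to 862), 643 (638 to 648) and 937 (932 to 942). The centromeric sum was thus highest at E12.5 and the telomeric sum at E16.5, beyond counting error. On the log2 scale, E16.5 over E12.5 was -0.46 for the centromeric flank, -0.20 for the cluster and 0.14 for the telomeric flank. The called width was 85.8, 40.7 and 69.7 kb in the centromeric flank and 140, 67.9 and 156 kb in the telomeric flank, and per kb of it the same ratios were -0.16, -0.18 and -0.02. The telomeric value thus changed its sign per kb, and the centromeric value kept its sign. At E14.5 all 3 sums were below those of E12.5 and all 3 were above them per kb, so the E14.5 sums are read together with the narrow E14.5 list.

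A ratio within each library needs no scaling between libraries. The telomeric flank held 1.72 times (1.69 to 1.75) the fragments of the centromeric flank at E12.5, 1.73 times (1.71 to 1.76) those at E14.5, and 2.60 times (2.58 to 2.63) those at E16.5. Over all regions the 2 earlier stages thus did not differ beyond counting error, and the E16.5 library stood above both. The ratio of called widths was 1.63, 1.67 and 2.23, so most of the gap was also in the width, and per kb the ratio was 1.06, 1.04 and 1.17. Over regions called in all 3 lists it was 1.84, 1.80 and 2.5, or 1.06, 1.03 and 1.25 per kb. Without regions that hold the start of a coding gene it was 2.06 (2.02 to 2.10), 2.5 (2.46 to 2.53) and 3.54 (3.50 to 3.58), so the earlier stages then differed beyond counting error. The ratio of called widths was then 1.82, 2.12 and 2.68, and per kb the ratio was 1.13, 1.18 and 1.32, so the earlier stages lay closer together per kb. The order of E16.5 above the others was the same in all of these.

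**Figure D1:**
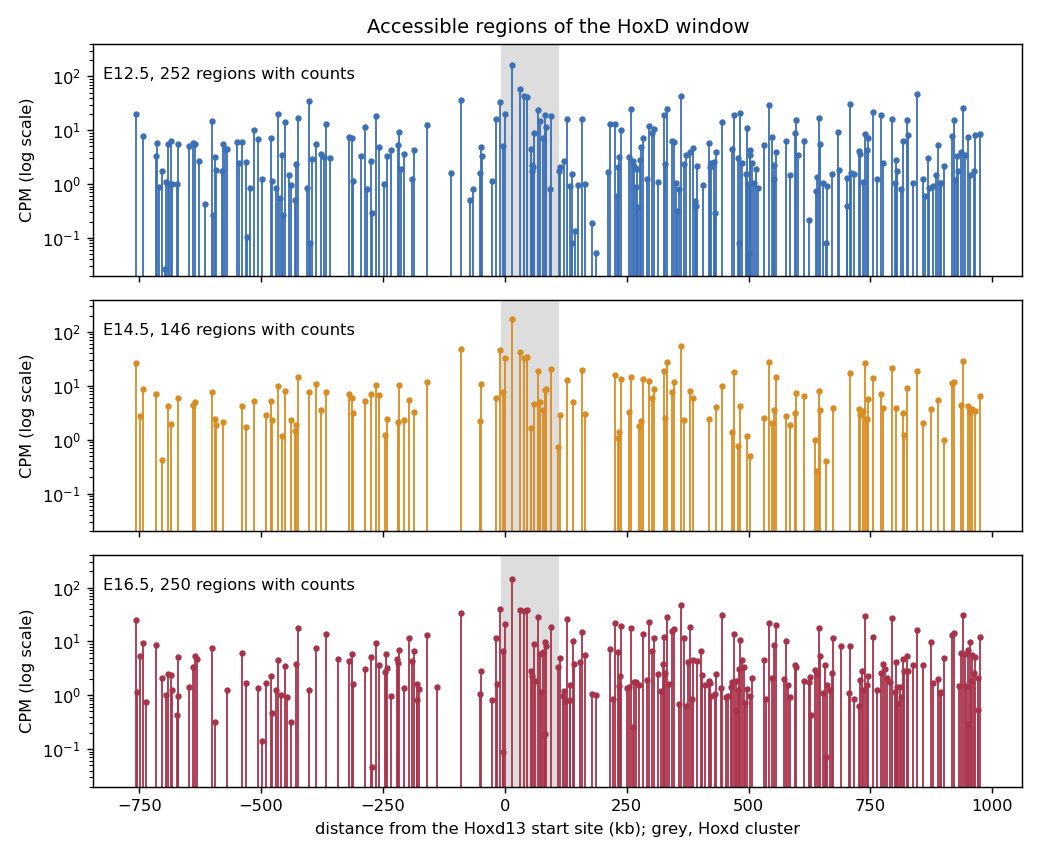
Level of every region with counts in the HoxD window, 1 panel per stage. The x axis is the distance from the Hoxd13 start site in kb, the y axis the level in CPM on a log scale, and grey marks the Hoxd cluster. The region with the highest sum, at Hoxd12 to Hoxd10, lies in the cluster at every stage, and the telomeric flank is populated along its whole length.

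The lower centromeric sum lay in 1 stretch, where the called width was also lower. Among 18 blocks of 100 kb along the window (the last one shorter), the only blocks more than 2-fold lower at E16.5 than at E12.5 were 3 adjacent ones, from -668 to -368 kb, with 46 regions. Together they held 213, 107 and 79.7 CPM, with a log2 ratio of E16.5 over E12.5 of -1.42, and of -1.23, -1.62 and -1.45 in the single blocks. The called width there was 39.3, 13.9 and 17.7 kb, and per kb the ratio was -0.28. The remaining centromeric blocks outside the cluster held 220, 198 and 222 CPM over 33.3, 18.0 and 36.8 kb, a log2 ratio of 0.01, or of -0.13 per kb, so per kb the stretch and the rest lay closer together than in their sums. These 3 blocks were chosen by their values, so the contrast with the rest is a description. Of the 18 blocks, 6 were higher at E16.5 than at E12.5, the highest by 0.62 on the log2 scale at the telomeric end of the window.

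**Figure D2:**
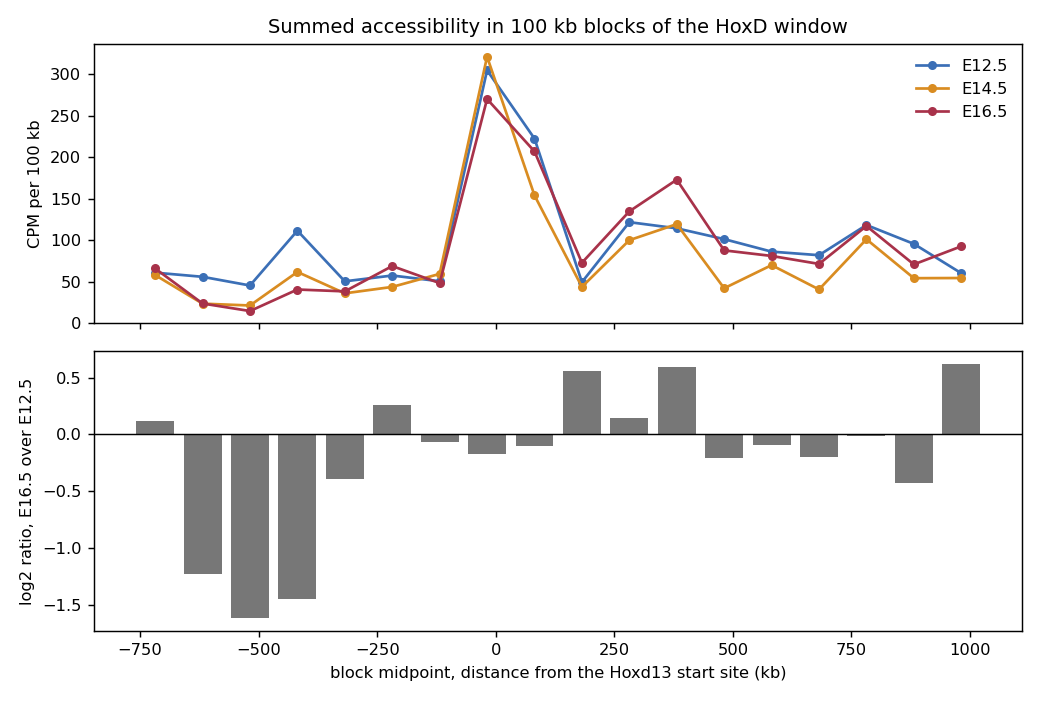
Summed accessibility in 100 kb blocks of the HoxD window. The upper panel plots CPM per block for each stage and the lower panel the log2 ratio of E16.5 over E12.5, against the block midpoint in kb from the Hoxd13 start site. The 3 adjacent blocks between -668 and -368 kb have the lowest bars, from -1.62 to -1.23.

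Of the 330 regions, 126 were called in all 3 lists, with 41 centromeric, 14 in the cluster and 71 telomeric. They held 86.1%, 96.2% and 83.2% of the window's fragments. Another 72 were called at E12.5 only, 65 at E16.5 only and none at E14.5 only. Of the rest, 47 were called at E12.5 and E16.5, 12 at E14.5 and E16.5 and 8 at E12.5 and E14.5. Regions called in all 3 lists made up 38.2% of the window, against 31.8% of all autosomal regions. Over the autosomes such regions held 85.6%, 97.4% and 80.7% of fragments, close to the window's shares. The shares of regions were 21.8% against 19.5% for E12.5 only, 19.7% against 27.4% for E16.5 only, and 14.2% against 17.2% for E12.5 with E16.5. These differences were not tested. The flanks were mostly intergenic, with 95 of 106 centromeric and 147 of 201 telomeric regions outside genes of GENCODE vM21, while 13 of 23 cluster regions overlapped a promoter (1000 bp before to 100 bp after a start site). A further 42 telomeric regions were intronic, among them those in the long noncoding gene 2600014E21Rik.

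Regions called in all 3 lists were compared with all such autosomal regions, by a fold of 2 in either direction. Between E12.5 and E14.5, 13 of 126 were higher, against 10.6% of all regions, and 31 were lower, against 16.4%. Between E14.5 and E16.5, 17 were higher, against 16.1%, and 19 were lower, against 6.87%. Over E12.5 to E16.5, 15 were higher, against 17.8%, and 31 were lower, against 15.6%. The shares of higher regions in the window were thus close to the background or below it, and the shares of lower regions above it. By side, E16.5 stood more than 2-fold above E12.5 in 1 of 41 centromeric, 0 of 14 cluster and 14 of 71 telomeric regions, and more than 2-fold below it in 11, 1 and 19. The median log2 ratio of E16.5 over E12.5 was -0.43 for centromeric, -0.20 for cluster and -0.05 for telomeric regions, against -0.01 over all. Those ratios rest on called widths that differ between stages. Among regions with called widths within 1.5 times of each other, 12 of 53 were higher at E14.5 than at E12.5, against 11.7% of all such regions, and 1 was lower, against 1.22%. In the next step 1 of 57 was higher, against 0.476%, and 12 were lower, against 11.4%. From first to last stage 4 of 77 were higher, against 4.48%, and 12 were lower, against 10.2%. By side, 2 of 24 centromeric, 1 of 13 cluster and 9 of 40 telomeric regions were then lower, and 0, 0 and 4 were higher. The median log2 ratio was then -0.09 for centromeric, -0.16 for cluster and -0.12 for telomeric regions, against -0.10 over all. The lower centromeric median was thus not seen among regions of similar called width. That filter leaves out regions whose width fell with their level, such as that at -402 kb, so it cannot tell width from level. These counts are small, and the difference between the window and the background was not tested. Among the 47 regions with a mean of at least 10 CPM, 3 were higher in the first step, against 5.16%, and 7 lower, against 5.38%. In the second step 6 were higher, against 4.52%, and 3 lower, against 2.42%. From first to last 6 were higher, against 8.96%, and 4 lower, against 7.78%. Among these 47, the direction that held more regions was the same as in the background in all 3 comparisons. Over the 126 regions it was the opposite for E16.5 against E14.5 and for E16.5 against E12.5.

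The centromeric region with the largest difference was the intergenic one at -402 kb (chr2:74264784-74267848), whose sequence is given above. It stood at 34.7 CPM (32.9 to 36.7), then 7.65 (7.12 to 8.21), then 1.25 (1.09 to 1.43), from 1302, 783 and 211 fragments. It thus went from 7.00% of all centromeric fragments to 2.06% and 0.347%. The log2 ratio was -2.18 for the first step between stages and -2.61 for the second. Its called width went from 3065 to 1389 and 463 bp, and its level per called kb was 11.3, 5.51 and 2.70 CPM, which kept the same order. Its neighbour at -466 kb (chr2:74201007-74203413), also intergenic, had 20.3, 10.1 and 4.51 CPM, and 8.43, 9.03 and 3.94 CPM per called kb, so only the step to E16.5 was kept per kb. The intergenic region at -425 kb, between them, had 16.6, 14.9 and 17.8 CPM and shows that the stretch did not move as 1 block. Among the other centromeric regions without a coding start were those at -264 kb, with 18.3, 10.2 and 9.46 CPM, and at -19.0 kb, with 16.4, 6.05 and 11.5 CPM. Per called kb the latter had 4.47, 6.31 and 2.71 CPM, so both of its steps changed their sign.

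In the telomeric flank the strongest region over the 3 libraries was that at 361 kb (chr2:75026790-75031046), and it was highest at E14.5. It had 43.1 CPM (41.0 to 45.2), 53.8 (52.4 to 55.2) and 47.8 (46.7 to 48.8), or 5.05%, 8.36% and 5.10% of the flank's fragments, and 11.4, 17.7 and 11.2 CPM per called kb. The region at 939.9 kb had 25.5, 29.0 and 31.4 CPM. Others were lowest at E12.5. The region at 556 kb (chr2:75223673-75225217), in an intron of 2600014E21Rik, had 4.03, 14.9 and 20.4 CPM. The intergenic region at 739 kb (chr2:75405397-75408447) had 8.67, 26.3 and 29.8 CPM, and that at 379 kb (chr2:75046697-75048165) had 3.92, 7.88 and 18.5 CPM. All 3 were also higher per called kb at E16.5 than at E12.5, by 1.14, 1.21 and 1.21 on the log2 scale. A pair of intergenic regions, at 683 and 689 kb, were each called in 1 list only, with 9.47 CPM at E12.5 and 8.17 CPM at E16.5, the highest such levels of the window, and both were chosen for this after their values were seen. The region at 445 kb (chr2:75112204-75115169) had 14.4, 9.85 and 30.7 CPM, but per called kb 12.2, 6.33 and 10.3, so its higher E16.5 sum went with a width of 2966 bp against 1182 bp at E12.5.

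Other telomeric regions had their highest sums at E12.5. The strongest telomeric region of that library, at 846 kb (chr2:75512180-75517435), had 47.1, 18.8 and 16 CPM, with called widths of 5256, 2144 and 2701 bp, and 8.95, 8.77 and 5.91 CPM per called kb, so its first step was not kept per kb. The region at 708 kb (chr2:75375538-75377385) had 30.3, 17.0 and 8.29 CPM, and per called kb its log2 ratio of E16.5 over E12.5 was -1.45. The region at 483 kb (chr2:75148639-75153148), in introns of 2600014E21Rik and A330043C09Rik, had 20.7, 4.22 and 10.5 CPM, and 4.59, 4.53 and 3.15 per called kb. Over the 17 named regions, the sign was the same per called kb in 14 for E16.5 against E12.5, in 13 for E14.5 against E12.5 and in 9 for E16.5 against E14.5.

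**Figure D3:**
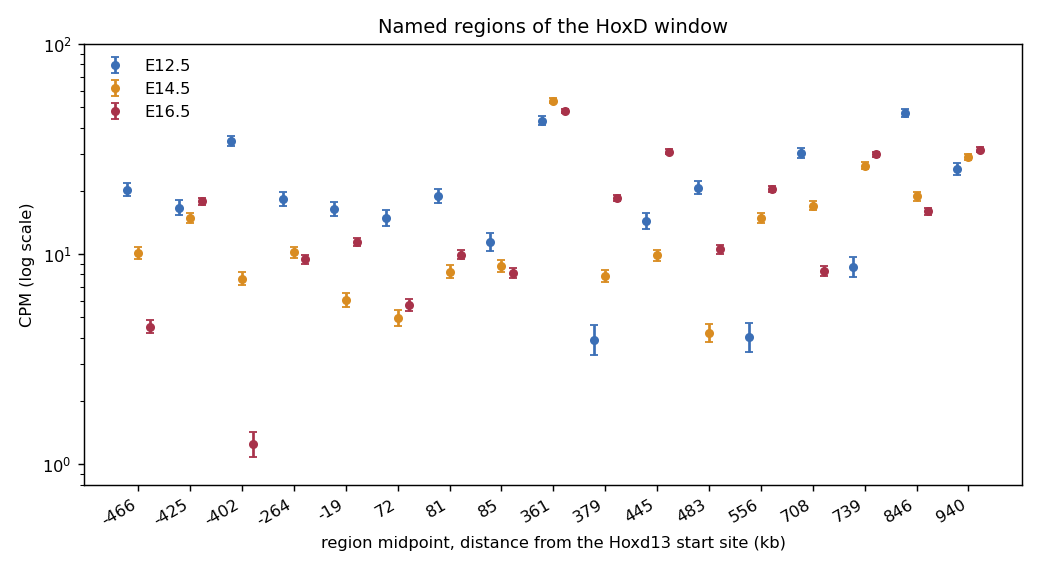
Level of the 17 named regions of the HoxD window at each stage. The x axis gives the region midpoint in kb from the Hoxd13 start site, the y axis the level in CPM on a log scale, and bars are exact Poisson 95% intervals. At -402 kb the points stand at 34.7 CPM for E12.5 and 1.25 CPM for E16.5, while at 556 and 739 kb E12.5 is the lowest point.

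Within the cluster, the sum at Hoxd13 was highest at E14.5, while those at Hoxd9, Hoxd8 and Hoxd3 with Hoxd4 were highest at E12.5. HOXD13 is a factor needed for digit patterning. The region at its start site (ENSMUSG00000001819.4, start at 74668310 on the forward strand, region chr2:74666347-74669170) had 20 CPM (18.6 to 21.5), 32.9 (31.8 to 34) and 20.6 (19.9 to 21.3). It was thus highest in the E14.5 library, by 0.72 on the log2 scale over E12.5, and the E12.5 and E16.5 levels overlapped. Per called kb the same step was 1.12, beside 0.99 for Hoxd8, 0.94 for Hoxd1, 0.61 for Hoxd9 and 0.41 for Hoxd3 with Hoxd4, so per kb every Hoxd start site was highest at E14.5 and Hoxd13 did not stand apart. Hoxd12 (ENSMUSG00000001823.5), Hoxd11 (ENSMUSG00000042499.13) and Hoxd10 (ENSMUSG00000050368.4), the next 3 genes and partners of Hoxd13 in the distal limb, lay in 1 merged region (chr2:74669815-74695230), which had 160, 172 and 146 CPM. This single region held the highest sum of the window at every stage, over 25416 bp. Per called kb it had 7.12, 10.4 and 6.11 CPM and was not the highest, as Lnpk had 21.4, 28.6 and 18.7. Evx2 (ENSMUSG00000001815.15), on the centromeric side of Hoxd13, had 34.0, 46.4 and 40.5 CPM, in a region that crosses the 74.66 Mb boundary and was counted with the centromeric flank by its midpoint.

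Hoxd9 and Hoxd8, in the middle of the cluster, had their highest sums at E12.5. Hoxd9 (ENSMUSG00000043342.9) had 57.5, 43.3 and 38.9 CPM, and Hoxd8 (ENSMUSG00000027102.4) had 43.5, 32.9 and 36.8 CPM. Per called kb both were highest at E14.5, so the step from E12.5 to E14.5 changed its sign with the width. Further towards the telomere, the region that holds the outermost annotated starts of Hoxd3 (ENSMUSG00000079277.9) and Hoxd4 (ENSMUSG00000101174.8) had 42.2, 34.1 and 37.6 CPM. The region at a further annotated Hoxd3 start had 23.3, 18.8 and 28.9 CPM and the region that holds the RefSeq start of Hoxd4 had 4.56, 1.64 and 2.81 CPM. Hoxd1 (ENSMUSG00000042448.5), the last gene of the cluster, had 18.1, 20.1 and 18.5 CPM, with called widths of 2592, 1511 and 2831 bp, which gave 6.96, 13.3 and 6.54 CPM per called kb. Gm28230, an annotated coding gene that overlaps Hoxd3, had 9.09, 4.52 and 9.09 CPM, with called widths of 2088, 770 and 2880 bp.

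Grouped by position, the 4 posterior regions (Hoxd13 to Hoxd10) held 41.8% (41.1 to 42.6, exact binomial) of the cluster's fragments, then 53.9% (53.4 to 54.4), then 45.0% (44.6 to 45.3). The 2 middle regions held 22.8%, 19.4% and 19.7%, and the 17 anterior ones 35.4%, 26.8% and 35.3%. The posterior share was thus highest at E14.5, where the middle and anterior shares were both below those of E12.5. The posterior share of the called width was 38.7%, 50.9% and 41.6% and moved with it.

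The 3 most open cluster regions without a coding start all had their highest sums at E12.5. The region at an inner annotated start of Haglr, a long noncoding RNA whose gene begins beside Hoxd1 and is read away from it, had 18.9, 8.26 and 9.95 CPM. The intronic region 72.2 kb telomeric of the Hoxd13 start, in Hoxd3 and Gm28230, had 14.9, 4.95 and 5.73 CPM. The promoter shared by the noncoding Gm14424 and Gm14426 had 11.4, 8.78 and 8.15 CPM, and per called kb 8.99, 9.82 and 5.52, so per kb it was highest at E14.5. In the first pair the log2 ratio of E16.5 over E12.5 per called kb was -1.02 and -1.14, the same order as in the sums.

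The landscapes also hold 3 coding genes that are not Hox or Evx genes. Lnpk, which encodes an endoplasmic reticulum protein, had 36.1, 47.8 and 34.2 CPM. Mtx2, which encodes a part of the mitochondrial import machinery, had 16.4, 19.9 and 15.0 CPM. Atp5g3, which encodes a subunit of the ATP synthase, had 19.8, 27.1 and 25 CPM. All 3 were highest at E14.5, as Hoxd13 and Evx2 were, so a higher E14.5 level was not particular to Hoxd13.

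**Figure D4:**
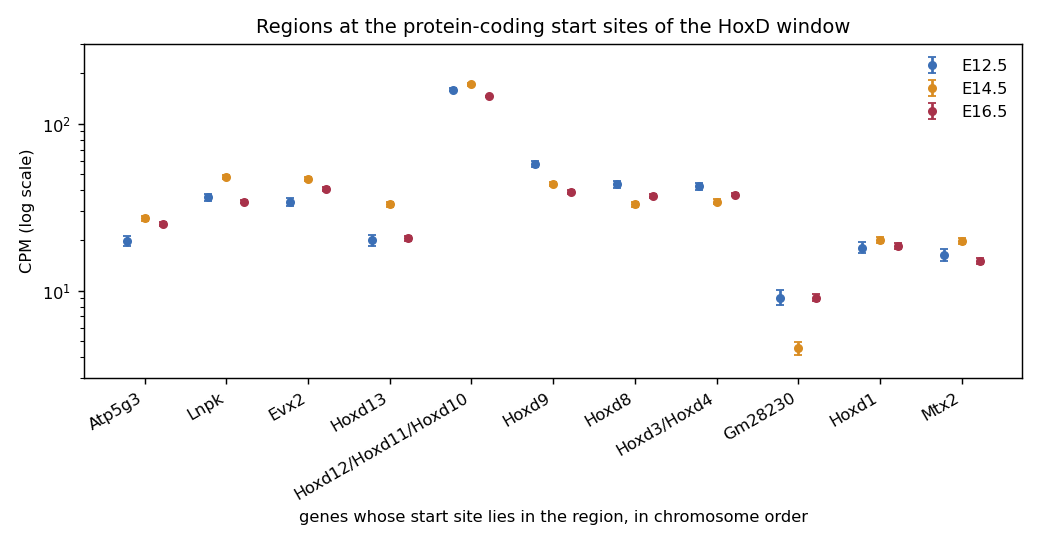
Level of the regions at the protein-coding start sites of the HoxD window, in chromosome order. The y axis is CPM on a log scale, colours are stages and bars are exact Poisson 95% intervals. The merged region of Hoxd12 to Hoxd10 has the highest sum, and Hoxd13 stands at 32.9 CPM at E14.5 against 20 and 20.6 at the other stages.

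The share of nuclei with at least 1 fragment was read after thinning every nucleus to 1 fixed number of fragments, below the 25th percentile of E12.5 (1309). This kept 6556 of 8294, 20023 of 20023 and 13945 of 14048 nuclei. Fragments were drawn from all peaks of a library. Autosomal regions called in all 3 lists, to which CPM are scaled, held 85.6%, 97.4% and 80.7% of autosomal fragments. The thinned shares thus follow another scaling than the CPM, which raises E14.5 against the other stages. The Hoxd13 region was open in 1.33% of nuclei (1.06 to 1.63), 3.20% (2.96 to 3.45) and 1.67% (1.46 to 1.90), and without thinning in 7.09%, 13.9% and 19.9%. The order of E14.5 over E16.5 thus reversed without thinning, where the E16.5 nuclei were deeper. Hoxd12 to Hoxd10 had 11.1%, 15.5% and 10.8%, Evx2 2.18%, 4.53% and 3.39%, and Hoxd9 4.12%, 4.32% and 2.77%. The whole cluster was open in 27.0%, 31.5% and 25.9% of thinned nuclei, the centromeric flank in 31.8%, 31.6% and 25.5%, and the telomeric flank in 46.6%, 46.6% and 53.5%. So at this depth most nuclei showed no fragment in the cluster, which is a limit of sampling and says nothing of how many nuclei had it closed.

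Whether cluster and flanks were open in the same nuclei was read from the number of thinned nuclei open in both, over the number given by the product of both shares. At E12.5, 693 nuclei were open in the cluster and the centromeric flank, against 562, a ratio of 1.23 (1.14 to 1.33). The centromeric flank was open in 39.2% (36.9 to 41.5) of nuclei with an open cluster and in 29.1% (27.8 to 30.4) of the others. At E14.5 the ratio was 1.05 (1.0 to 1.09), with 2084 nuclei against 1989, and at E16.5 it was 1.04 (0.975 to 1.11), with 959 against 922. For the cluster and the telomeric flank the ratio was 1.11 (1.04 to 1.18), 1.05 (1.01 to 1.09) and 1.01 (0.961 to 1.05). For the centromeric and telomeric flanks it was 1.09 (1.03 to 1.16), 1.02 (0.984 to 1.06) and 1.04 (0.994 to 1.09). Joint openness with the cluster was thus above the product at E12.5 on both sides, and at E16.5 its interval held 1 on both. An interval that held 1 does not show that both parts opened independently. These intervals hold the expected number fixed and can be wider than the counting error of the ratio. At E16.5 the interval of the flank pair held 1. Yet the telomeric flank was open in 55.6% (53.9 to 57.2) of nuclei with an open centromeric flank and in 52.7% (51.8 to 53.7) of the others.

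Nuclei of the E12.5 library also differed more in how much of them lay on chromosome 2. The share of a nucleus's fragments on that chromosome had an SD of 2.38%, 1.52% and 1.03% over nuclei, against 0.797%, 0.793% and 0.797% from counting. At E12.5 the cluster was open in 18.3% of the nuclei in the lowest of 10 strata of that share and in 36.3% in the highest, and at E16.5 in 24.5% and 26.1%. Within strata the E12.5 ratio was 1.2 (1.11 to 1.29) for the cluster and the centromeric flank and 1.09 (1.02 to 1.16) for the cluster and the telomeric flank. For comparison, 10 bins of 1 Mb within 5 Mb of the window gave ratios with the cluster from 1.04 to 1.1 in the first library, from 1.02 to 1.06 in the second and from 0.968 to 1.03 in the third, and the median over bins of other autosomes was 0.999, 0.997 and 0.999. Single bins of other autosomes ranged from 0.818 to 1.24 in the first library, with 5% and 95% quantiles of 0.942 and 1.05, so the highest of 1817 reached the ratio of the cluster and the centromeric flank. The E12.5 ratio with the centromeric flank thus stood above those of the nearby bins, while that with the telomeric flank stood at their upper end. The centromeric ratio at E12.5 was 1.16 with another random seed, 1.14 over regions called in all 3 lists and 1.1 when nuclei were thinned to 2000 fragments, which also kept fewer nuclei (5296).

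**Figure D5:**
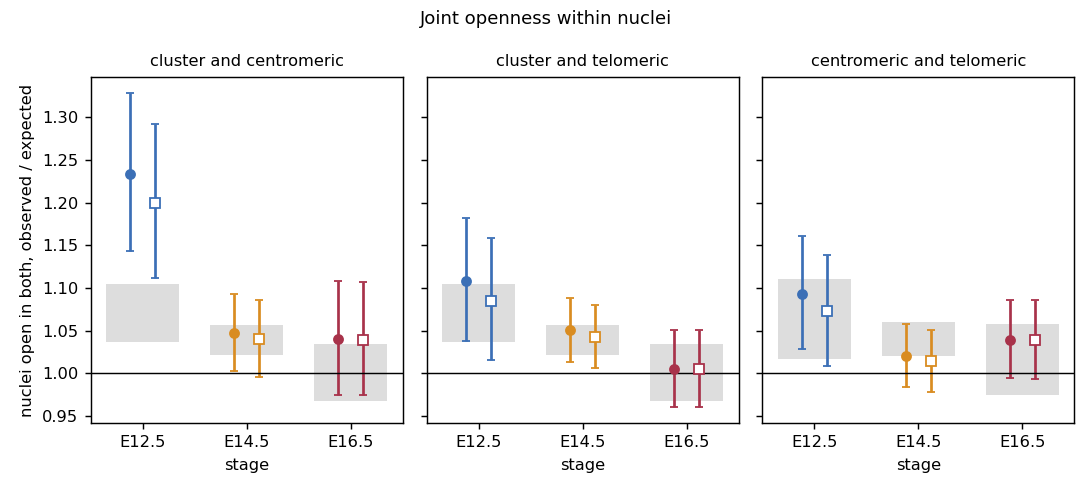
Nuclei open in both of a pair of parts of the HoxD window, observed over expected, by stage. Filled points use all nuclei together, open points the product within 10 strata of the chromosome 2 share, bars are exact Poisson 95% intervals of the observed number, grey boxes span the ratios of the first part named with 10 bins of 1 Mb within 5 Mb of the window, and the line at 1 is the product of both shares. The cluster and centromeric pair stands at 1.23 at E12.5 and at 1.04 at E16.5.

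Inside the cluster the posterior and middle regions were open together in 1.51 times (1.21 to 1.85) the expected number of nuclei at E12.5, then 1.19 times (1.06 to 1.33), then 1.18 times (0.981 to 1.42). The posterior regions end at 74695230 and the middle ones begin at 74695342. A single fragment with a cut in each could thus count in both, and its part in the ratio was not tested. For the posterior and anterior regions the ratio was 1.39 (1.16 to 1.65), 1.12 (1.01 to 1.23) and 1.09 (0.941 to 1.25). The middle and anterior regions had 1.36 (1.06 to 1.71), 1.25 (1.08 to 1.45) and 1.05 (0.838 to 1.30). No pair of parts of the cluster had a ratio below 1. At E16.5 all 3 intervals held 1, which does not show that the parts opened independently. The posterior regions had 1.27 (1.14 to 1.42), 1.07 (1.02 to 1.13) and 1.06 (0.968 to 1.16) with the centromeric flank, and 1.09 (0.990 to 1.2), 1.06 (1.01 to 1.11) and 1.0 (0.938 to 1.07) with the telomeric flank. At E12.5 the interval with the telomeric flank held 1. Yet that flank was open in 50.9% (47.4 to 54.4) of nuclei with open posterior regions and in 46.0% (44.7 to 47.3) of the others. The anterior regions had 1.24 (1.1 to 1.39), 1.01 (0.929 to 1.09) and 1.02 (0.918 to 1.13) with the centromeric flank, and 1.18 (1.07 to 1.30), 1.07 (1.0 to 1.14) and 1.03 (0.963 to 1.11) with the telomeric flank. The intervals of posterior and anterior regions overlapped for each flank and stage.

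The posterior Hoxd regions were also paired with start sites elsewhere. Hoxa11 and Hoxa13 are their counterparts of the A cluster in the limb. With Hoxa11 the ratio was 1.05 (0.881 to 1.24), 1.1 (1.03 to 1.17) and 1.14 (1.02 to 1.27), and with Hoxa13 it was 0.721 (0.330 to 1.37), 1.14 (0.955 to 1.35) and 1.28 (0.934 to 1.70). Over coding start sites open in at least 100 thinned nuclei the median ratio was 1.01 at each stage, with the 5th and 95th percentiles at 0.708 and 1.35, 0.863 and 1.16, and 0.780 and 1.26. The values for Hoxa11 lay between them, as did that for Hoxa13 at E14.5, while Hoxa13 at E16.5 lay just above with 46 nuclei and at E12.5 had too few open nuclei for this range. Yet the Hoxa11 intervals at E14.5 and E16.5 lay above 1. Start sites open in few nuclei widen this range by counting error, so a value inside it is not shown to be like the background. The proximal limb genes Meis1, Meis2 and Shox2 had ratios from 0.924 to 1.14, the cartilage genes Sox9 and Col2a1 from 0.994 to 1.26, and the tendon gene Scx from 0.988 to 1.02, all inside that range. Acan, Tnmd, Dpt, Cd34, Irx1 and Twist2 had ratios from 0.610 to 1.26. The lowest were those of Dpt at E12.5 (0.610, 3 nuclei) and Tnmd at E16.5 (0.757, 6 nuclei), which had too few open nuclei for this range, and their counting intervals held 1.

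Matches to the CTCF core were looked for on both strands of all 330 regions, because the direction of CTCF sites sets the boundary of such landscapes. There were 9, shown with 9 bases on either side in the direction of the match, which is in capitals, and each is named by its distance in kb from the Hoxd13 start.
-640.4 kb, forward strand, chr2:74027921-74027932: gttggtggcCCAGTAGATGGCagcctgccc
-368 kb, forward strand, chr2:74300448-74300459: taacaatgaCCAGTAGGTGGCggtccagcc
-12.8 kb, reverse strand, chr2:74655527-74655538: ctcctgctgCCGCTAGGGGGCgccccgggg
296 kb, reverse strand, chr2:74964539-74964550: aaggagcctCCAGCAGGGGGCacccttttg
387 kb, reverse strand, chr2:75055365-75055376: tgtatttggCCACTAGGTGGCactgttggt
390.3 kb, reverse strand, chr2:75058575-75058586: atatccactCCTCTAGATGGCtgtaaaaag
483 kb, reverse strand, chr2:75151173-75151184: gcttcttcaCCACCAGGTGGCgccctttgt
484 kb, reverse strand, chr2:75152692-75152703: tgcctcagtCCACTAGAGGGCgctttccca
922 kb, reverse strand, chr2:75590413-75590424: agatcgtgtCCACTAGGTGGCgcgcatggg
Of the 3 centromeric matches, the pair far from the cluster was on the forward strand, and the third, in the Evx2 region, was on the reverse strand. All 6 telomeric matches were on the reverse strand. No region of the cluster held an exact match, and CTCF sites that depart from the consensus searched were not counted. A match is a description of letters, and binding was not measured. In the 300-base windows of the 126 regions called in all 3 lists, 2 held the CTCF core, against 5.04% of 82930 autosomal windows, and 13 (10.3%, 5.61 to 17.0) held CAATAAA, against 5.80%. TGACAG was held by 26 (20.6%, 13.9 to 28.8), against 20.2%, and TTTACGA, a motif of posterior HOX factors, by 2, against 0.894%. These searches counted each motif on its own, so matches of different motifs may overlap. No Hoxd promoter of the RefSeq table held any of the 4 motifs in its 250 bases, and over all promoters 4.2% held CAATAAA and 15.9% TGACAG.

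The other Hox clusters were summed in the same way, from the first to the last Hox gene with 5 kb on either side. HoxD, so measured, had 443, 393 and 381 CPM and HoxA, the other cluster used in the distal limb, 540, 536 and 495 CPM. HoxB had 227, 152 and 300 CPM and HoxC 233, 157 and 295 CPM. The log2 ratio of E16.5 over E12.5 was -0.22 for HoxD, -0.13 for HoxA, 0.41 for HoxB and 0.34 for HoxC. Per called kb it was -0.18, -0.12, -0.19 and -0.06, so the opposite signs of HoxD and HoxA against HoxB and HoxC were seen in the sums and not in the ratios per kb.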

How the data were processed

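The authors sequenced 3 single-nucleus ATAC-seq libraries (E12.5, E14.5 and E16.5), and Cell Ranger ATAC (version 1.1.0 in the submitters' processing notes, 1.0.1, 1.0.1 and 1.2.0 in the file headers) aligned the reads to mm10 and called peaks separately in each library. The deposited matrices hold counts of cut sites per peak and nucleus. Each count was divided by 2 and rounded up to fragments, which totalled 44571038, 106980246 and 213006655. Levels were scaled to fragments in autosomal regions called in all 3 lists (CPM). Samples were grouped by the stage in the labels. No test was run. Intervals are exact Poisson (CPM and joint openness) or exact binomial (shares and the telomeric to centromeric ratio) at 95%. They cover counting error only. No doublets were removed here, and all deposited barcodes were used. Genes follow GENCODE vM21 (GRCm38), start sites being the outermost ones annotated, and 13 of the coding genes matched the RefSeq promoter table. The members, gene lists and motifs were chosen with earlier results of these data known. Regions named in the text are those at coding start sites, the 3 with the highest mean CPM on each side without a coding start, and the 3 largest differences in each direction between adjacent stages among 47 regions with a mean of at least 10 CPM. A further 2 regions, each called in 1 list only, were named after their values were seen. Python 3.11.15, numpy 2.4.6, scipy 1.17.1 and pandas 2.3.3 were used, and the scripts were tested on simulated data. Alternatives covered scaling, called width, shared regions, binarised counts, depth, thinning and strata.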

Additional observations from a re-analysis of the deposited data

How the results depend on the processing

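The telomeric to centromeric ratio was highest at E16.5 under each setting tried for it, and the sums for E16.5 over E12.5 stayed below 0 for the centromeric flank (-0.64 to -0.10) and the cluster (-0.50 to -0.033), while that of the telomeric flank changed sign. Sums that involve E14.5 depended on the called width, which was narrowest there. Of 72 alternative values for the sums, 17 differed from the reported value by less than its counting interval, 41 moved and 14 reversed. With scaling to all counts in peaks, the log2 ratios that moved were -0.23 (centromeric), 0.017 (cluster, reversed) and -0.22 (telomeric) for E14.5 over E12.5, -0.31 (centromeric), -0.31 (cluster) and 0.27 (telomeric) for E16.5 over E14.5, and -0.55 (centromeric), -0.29 (cluster) and 0.049 (telomeric) for E16.5 over E12.5. With scaling by the median ratio over shared regions, the log2 ratios that moved were -0.30 (centromeric), -0.049 (cluster) and -0.29 (telomeric) for E14.5 over E12.5, and -0.13 (centromeric), -0.13 (cluster) and 0.45 (telomeric) for E16.5 over E14.5. With regions called in all 3 lists only, the log2 ratios that moved were -0.18 (centromeric) and -0.21 (telomeric) for E14.5 over E12.5, -0.23 (centromeric), -0.066 (cluster) and 0.24 (telomeric) for E16.5 over E14.5, and -0.41 (centromeric) and 0.028 (telomeric) for E16.5 over E12.5. Per kb of called width, the log2 ratios that moved were 0.66 (centromeric, reversed), 0.66 (cluster, reversed) and 0.64 (telomeric, reversed) for E14.5 over E12.5, -0.82 (centromeric), -0.84 (cluster) and -0.66 (telomeric, reversed) for E16.5 over E14.5, and -0.16 (centromeric) and -0.019 (telomeric, reversed) for E16.5 over E12.5. With the matrix binarised, the log2 ratios that moved were 0.046 (cluster, reversed) for E14.5 over E12.5, -0.0062 (centromeric) and -0.079 (cluster) for E16.5 over E14.5, and -0.41 (centromeric), -0.033 (cluster) and 0.16 (telomeric) for E16.5 over E12.5. Without the deepest 5% of nuclei, the log2 ratios that moved were -0.37 (centromeric) and -0.055 (cluster) for E14.5 over E12.5, and -0.089 (cluster) and 0.16 (telomeric) for E16.5 over E12.5. Without regions holding a coding start site, the log2 ratios that moved were -0.70 (centromeric) and -0.93 (cluster) for E14.5 over E12.5, 0.062 (centromeric, reversed), 0.43 (cluster, reversed) and 0.56 (telomeric) for E16.5 over E14.5, and -0.64 (centromeric) and -0.50 (cluster) for E16.5 over E12.5. With regions whose called width agreed within 1.5 times, the log2 ratios that moved were 0.43 (centromeric, reversed), 0.089 (cluster, reversed) and 0.09 (telomeric, reversed) for E14.5 over E12.5, -0.39 (centromeric), -0.27 (cluster) and -0.0049 (telomeric, reversed) for E16.5 over E14.5, and -0.10 (centromeric) and -0.043 (telomeric, reversed) for E16.5 over E12.5. Of 42 alternatives for joint openness, 36 lay within the counting interval. Those that moved were, for the cluster and the centromeric flank at E12.5, 1.1 at 2000 fragments, 1.14 over regions called in all 3 lists and 1.70 from products of counts, for the cluster and the telomeric flank at E12.5, 1.55 from products, and at E14.5 1.13 and 1.17 from products. The shares of shared regions past 2-fold moved, with a mean of at least 10 CPM, to 14.9% lower for E14.5 over E12.5 (5.38% of all regions), 6.38% lower for E16.5 over E14.5 (2.42%) and 8.51% lower for E16.5 over E12.5 (7.78%), and, with widths within 1.5 times, to 22.6% higher and 1.89% lower (E14.5 over E12.5), 1.75% higher (E16.5 over E14.5), and 5.19% higher and 15.6% lower (E16.5 over E12.5). Per kb of called width, 9 of 33 ratios at start sites reversed. These were -0.15 for Evx2 and 0.016 for Hoxd8 (E16.5 over E12.5), 0.61 for Hoxd9, 0.99 for Hoxd8, 0.41 for Hoxd3 with Hoxd4 and 0.43 for Gm28230 (E14.5 over E12.5), and -0.97 for Hoxd8, -0.53 for Hoxd3 with Hoxd4 and -0.90 for Gm28230 (E16.5 over E14.5). The settings without coding start sites, with widths within 1.5 times for the sums, and within strata of the chromosome 2 share were chosen after seeing the data. The cause of these differences was not tested. No paired analysis was possible because each stage had 1 library.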

Other observations

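In the 300-base windows of the 126 HoxD regions called in all 3 lists, all 14 matches to CAATAAA lay on the forward strand, while over the whole intervals of the window 62 lay on the forward and 59 on the reverse strand, and in other autosomal windows 2495 and 2539. This was looked at after the matches had been seen, and it was not tested. TGACAG lay on both strands of the same windows, with 13 matches forward and 16 reverse.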
